A study of Mus musculus with 18 samples.

Results

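Alpha and beta cells from mouse islets were compared after both had been exposed to interferon gamma (IFNγ). The comparison used 6 of the 18 RNA-seq libraries of the series, chosen by their sample titles: 3 libraries of alpha cells with IFNγ (alpha IFNγ) and 3 of beta cells with IFNγ (beta IFNγ). Islets of male C57BL/6 (C57BL/6JRj) mice aged 12 weeks were cultured whole for 20 h with IFNγ at 5 ng/mL and were dissociated only afterwards, so both cell types met the cytokine inside the islet. Cells positive for Epcam and negative for CD45, TER119 and CD31 were then sorted. The gate for alpha cells was low CD24 without CD71, and that for beta cells was low CD24 with CD71; each gate enriches a cell type and was not a transgenic label. Untreated alpha and beta cells (alpha control and beta control, 3 libraries each) served as background, and 6 delta cell libraries entered the fit for its estimate of spread. Beta control 3 was deposited under a name with papain in it and without CD71, which the names of all other beta libraries carry, so whether that library was dissociated and sorted like the others is not stated in the sources used here. No genetic change is named for the mice, and neither labels nor methods state how many animals contributed to a library.

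Alpha cells secrete glucagon and beta cells secrete insulin, and each type is held in its state by its own transcription factors. IFNγ binds a receptor made of IFNGR1 and IFNGR2, which activates the kinases JAK1 and JAK2. The signal acts through GAS elements in DNA and induces the transcription factor IRF1, and it drives genes of antigen presentation, intracellular defence and immune regulation. In type 1 diabetes beta cells are destroyed by T cells while alpha cells largely persist, and the comparison asks how the treated cell types differ in identity and in the levels of the genes that IFNγ induces.

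The 6 libraries held between 7659135 and 10929016 expected counts, and CPM below means counts relative to a library size adjusted by TMM (trimmed mean of M values). The alpha IFNγ libraries did not form a uniform group. The balance between GC-poor and GC-rich genes (the median log2 deviation of the 20% of genes lowest in GC minus that of the 20% highest) was 1.08, -0.609 and 0.908 in alpha IFNγ 1, 2 and 3, against -0.744, -0.407 and -0.43 in beta IFNγ 1, 2 and 3. Ribosomal RNA took 5%, 21.8% and 13% of the counts in alpha IFNγ libraries and 36.7%, 26.6% and 21.3% in beta IFNγ libraries. Alpha IFNγ 1 also stood apart in named genes. It had 55.7 CPM of Lcn2 (lipocalin 2, an acute phase protein), against 0.501 and 0 CPM in alpha IFNγ 2 and 3, and 447 CPM of Steap4, against 20.1 and 15.6 CPM. In all, 24 protein-coding genes were at least 4-fold above the higher of the other alpha IFNγ libraries in alpha IFNγ 1, and 12 at least 4-fold below the lower. Counts without alpha IFNγ 1, or without both alpha IFNγ 1 and 3, are given beside many of the lists.

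The hormone genes of the treated cells followed their labels. Gcg (chr2:62474530-62483650, GRCm38), which encodes glucagon, had 74633, 88997 and 111587 CPM in alpha IFNγ libraries, against 907, 1908 and 1234 CPM in beta IFNγ libraries (log2 difference 6.09 ± 1.33 (SE), adjusted p = 0.0023). Ins2 (chr7:142678656-142743381), an insulin gene, had 291, 1637 and 1577 CPM in alpha IFNγ libraries, against 30178, 29596 and 17515 CPM in beta IFNγ libraries (log2 difference -4.46 ± 0.84 (SE), adjusted p = 0.00068). The groups did not overlap for either gene. As a share of the TPM (transcript abundance per length) of all protein-coding genes, Gcg made up 19.4% to 25.8% in alpha IFNγ libraries, against 0.225% to 0.42% in beta IFNγ libraries, and Ins1 and Ins2 together 0.272% to 1.32% in alpha IFNγ libraries, against 17.2% to 21.4% in beta IFNγ libraries. By mean TPM, Gcg ranked first of 21974 protein-coding genes in alpha IFNγ cells and 21st in beta IFNγ cells, while Ins2 ranked 6th in alpha IFNγ cells and first in beta IFNγ cells. In bulk libraries a small number of cells of the other type and a low level in every cell cannot be told apart.

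Of the 17338 genes tested with edgeR's quasi-likelihood test over the 18 libraries, 2398 were higher in alpha IFNγ cells (13.8%) and 2300 were lower (13.3%) at a Benjamini-Hochberg adjusted p under 0.05. The median log2 difference over all genes tested was 0.03. Counts for the gene lists below are to be read beside the shares of 13.8% and 13.3% over all genes. Groups did not overlap for 19.6% of genes with the alpha IFNγ libraries above and for 19.9% with them below. Without alpha IFNγ 1 the counts were 1430 higher and 1413 lower, and without both alpha IFNγ 1 and 3 they were 930 and 766. At an adjusted p under 0.01 7.3% of genes were higher and 7.73% lower. In the controls 9.56% of genes were higher and 10.1% lower in alpha cells.

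Among 21 tested genes of an alpha identity list, 16 were higher in alpha IFNγ cells and 1, Dpp4, was lower, with a median log2 difference of 2.83. Irx1 and Irx2, homeobox genes enriched in alpha cells, differed by 5.55 ± 0.58 and 4.89 ± 0.35 on the log2 scale (SE, adjusted p = 1.86e-06 and 4.53e-08). Ttr, the thyroxine carrier transthyretin, averaged 2567 ± 859 CPM in alpha IFNγ cells and 96.9 ± 18.5 CPM in beta IFNγ cells (SD, n = 3 each). Pcsk2, the convertase that processes proglucagon and proinsulin, was closer between the groups, with 2387, 3189 and 3011 CPM in alpha IFNγ cells and 1707, 1874 and 1542 CPM in beta IFNγ cells (log2 difference 0.75 ± 0.21 (SE), adjusted p = 0.0121). All 3 alpha IFNγ libraries lay above all beta IFNγ libraries for each of these genes. Dpp4, the peptidase that cleaves incretins, ran the other way, with 24.5, 22.8 and 34.9 CPM in alpha IFNγ cells and 70.0, 82.9 and 69.8 CPM in beta IFNγ cells, and was lower in alpha control cells as well (-1.85 ± 0.24).

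Of 31 tested beta identity genes, 23 were lower in alpha IFNγ cells and none was higher, with a median log2 difference of -2.79. Mafa, a transcription factor of mature beta cells, had 0.949, 9.63 and 16.2 CPM in alpha IFNγ libraries, against 187, 204 and 232 CPM in beta IFNγ libraries (log2 difference -4.55 ± 0.78 (SE), adjusted p = 0.00029). Pdx1, which activates insulin transcription, had 5.78, 7.52 and 13.3 CPM in alpha IFNγ libraries, against 109.6, 109 and 76.6 CPM in beta IFNγ libraries (log2 difference -3.47 ± 0.49 (SE), adjusted p = 4.05e-05). The glucose transporter gene Slc2a2 and the urocortin gene Ucn3 differed by -4.52 ± 0.79 and -5.72 ± 0.61 on the log2 scale. For Mafa, Pdx1, Slc2a2, Ucn3 and Ins2 alpha IFNγ 1 was the lowest of the alpha libraries. Receptors of incretins and nutrients on the beta identity list were lower too. Glp1r, the GLP-1 receptor, had 7.67, 27.1 and 46.2 CPM in alpha IFNγ libraries, against 874, 873 and 826 CPM in beta IFNγ libraries (log2 difference -4.99 ± 0.58 (SE), adjusted p = 5.44e-06), and Gipr and Ffar1, the receptors for GIP and for long-chain fatty acids, differed by -1.45 ± 0.23 and -1.78 ± 0.38 (SE, adjusted p = 0.00016 and 0.00206). Abcc8 and Neurod1 did not pass the test (adjusted p = 0.13 and 0.0583); Neurod1, needed in all islet endocrine cells, had 669, 389 and 449.7 CPM in alpha IFNγ cells and 337, 329 and 277 CPM in beta IFNγ cells. The counts of both identity lists were close without the libraries that stood apart: without alpha IFNγ 1 and 3, 14 alpha genes were higher and 21 beta genes lower.

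**Figure D1:**
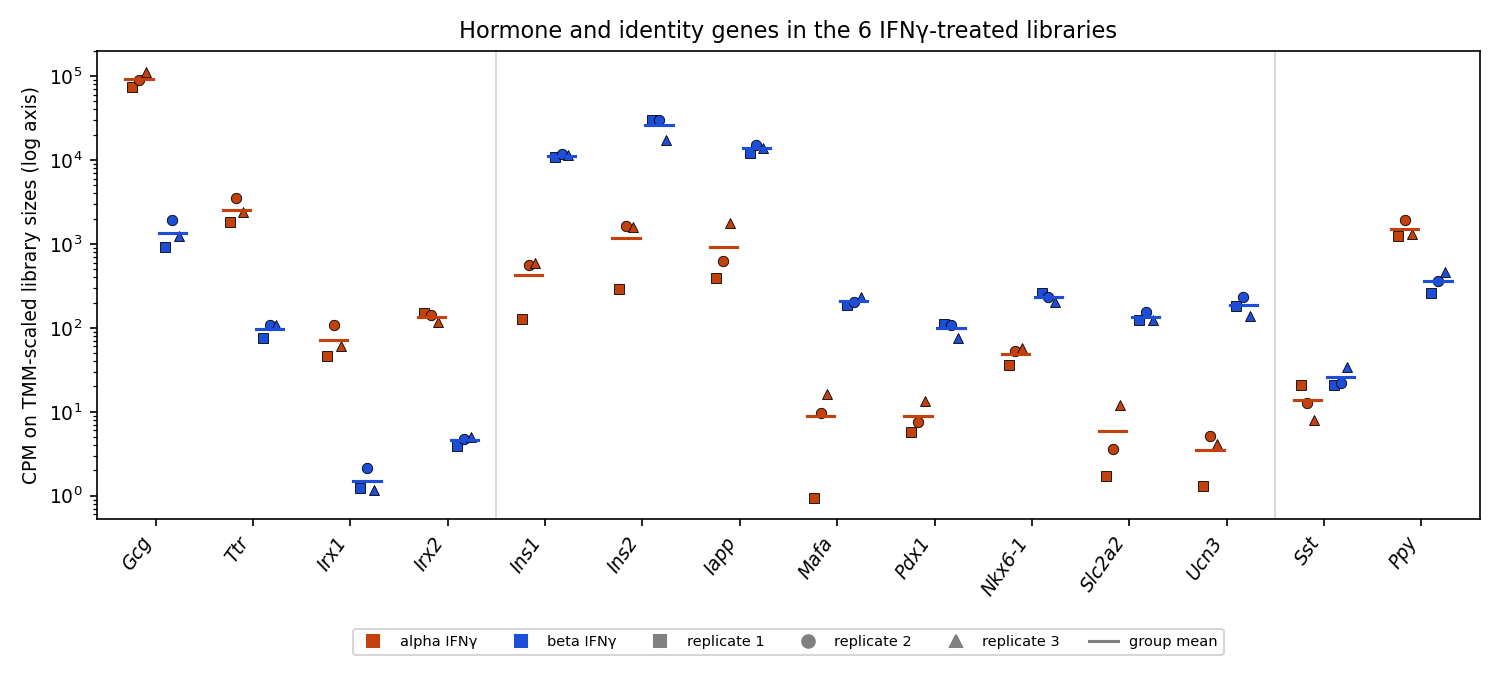
Levels of hormone and identity genes in each IFNγ-treated library, in CPM on a log axis; points are libraries, shapes are replicate numbers and bars are group means, with alpha IFNγ left of beta IFNγ. Alpha genes (left), beta genes (middle) and the delta and polypeptide hormones (right) are separated by grey lines; Gcg lies between 74633 and 111587 CPM in alpha IFNγ libraries, and Mafa stands at 0.949 CPM in alpha IFNγ 1.

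Sst, the delta cell hormone, had 20.9, 12.8 and 8.03 CPM in alpha IFNγ libraries, against 20.6, 22.3 and 34.0 CPM in beta IFNγ libraries, with overlapping groups and no call (adjusted p = 0.521). Ppy and Pyy, hormones of polypeptide cells, were higher in alpha IFNγ cells, Ppy with 1241, 1953 and 1306 CPM in alpha IFNγ libraries, against 262, 364 and 458 CPM in beta IFNγ libraries (log2 difference 2.05 ± 0.49 (SE), adjusted p = 0.00435) and Pyy with a log2 difference of 2.60 ± 0.52. In the list of delta, polypeptide and ghrelin cell genes 7 of 16 were higher in alpha IFNγ cells and none was lower. The surface proteins used in the sort were also looked at as RNA. Tfrc, which encodes CD71, had 124, 65.3 and 131 CPM in alpha IFNγ libraries, against 97.7, 145 and 128 CPM in beta IFNγ libraries (adjusted p = 0.642), and Cd24a had 3.88, 1.30 and 2.90 CPM in alpha IFNγ cells and 2.49, 2.96 and 3.96 CPM in beta IFNγ cells (adjusted p = 0.709). Both groups overlapped in each of these genes. Itga6, which encodes CD49f, a further antibody target of the sort, was lower in alpha IFNγ cells (log2 difference -1.72 ± 0.21 (SE), adjusted p = 7.1e-06).

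Markers of other cells differed in part. Summed over 32 acinar genes, 13.8, 39.5 and 19.2 CPM were found in alpha IFNγ libraries and 264, 36.6 and 289 CPM in beta IFNγ libraries; of 27 tested, 1 was higher and 2 were lower in alpha IFNγ cells, with a median log2 difference of -3.47, and Ctrc, Prss1 and Cela3a were at 0 in all 6. In the 8 alpha and beta libraries of the dates that held both treatments, with date as a term, 10 of 22 acinar genes were lower, and in controls 20 of 27 were lower in alpha cells. The control sums were uneven, with 3035, 173 and 51.4 CPM in beta control 1, 2 and 3. In alpha control 1, 2 and 3 they were 86.9, 32.4 and 39.8 CPM, so beta control 3 lay below alpha control 1. The 15 duct genes summed to 1090 to 1717 CPM in alpha IFNγ libraries and 781 to 926 CPM in beta IFNγ libraries, with 3 of 14 higher and 2 lower; Spp1, the osteopontin gene of that list, alone had 1259, 721 and 640.4 CPM in alpha IFNγ cells and 128, 122 and 123 CPM in beta IFNγ cells. The 16 mesenchymal and Schwann genes summed to 16.1 to 22.1 CPM in alpha IFNγ libraries and 7.11 to 10.6 CPM in beta IFNγ libraries, with 2 of 5 tested higher and 8 at 0, among them Col1a1, Dcn and Pdgfra. Immune genes (18) summed to 4.16 to 6.73 CPM in alpha IFNγ libraries and 7.82 to 8.98 CPM in beta IFNγ libraries, with 1 of 3 tested higher, 1 lower and 9 at 0, among them Ptprc, Adgre1 and Cd3e, which allows up to 0.259 to 0.533 CPM of each in a library. Endothelial genes (12) stayed between 2.8 and 5.31 CPM in alpha IFNγ libraries and between 3.44 and 5.25 CPM in beta IFNγ libraries, with none of 4 tested past the threshold and Cdh5 and Tie1 at 0. Intervals and floors cover counting error only. The part of these cells in the differences below was not tested.

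Other functions of endocrine cells differed in both directions. Of 32 tested receptors of hormones and nutrients 9 were higher and 14 lower in alpha IFNγ cells. Avpr1b, a vasopressin receptor, had 119, 104 and 95.8 CPM in alpha IFNγ libraries, against 1.95, 2.61 and 1.28 CPM in beta IFNγ libraries (log2 difference 5.76 ± 0.61 (SE), adjusted p = 1.99e-06). Adrb1 and Oxtr, the beta-1 adrenergic and oxytocin receptors, had log2 differences of 5.04 ± 0.66 and 4.99 ± 0.30 (SE, adjusted p = 1.74e-05 and 7.89e-09). Of 30 genes of glucose sensing and ion channels 8 were higher and 7 lower. Hk1, the hexokinase of high glucose affinity, had 19.7, 28.1 and 19.4 CPM in alpha IFNγ libraries, against 0.888, 0.948 and 0.350 CPM in beta IFNγ libraries (log2 difference 4.95 ± 0.46 (SE), adjusted p = 4.96e-07), and Trpm5, a cation channel of beta cells, had 0.690, 2.71 and 3.00 CPM in alpha IFNγ cells and 69.3, 75.5 and 61.1 CPM in beta IFNγ cells (log2 difference -5.02 ± 0.53 (SE), adjusted p = 1.76e-06). The groups did not overlap for these receptors and channels.

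Of 28 genes of granules and prohormone processing 4 were higher and 9 lower. Pcsk1, the convertase that starts proinsulin cleavage, had 13.5, 30.9 and 159 CPM in alpha IFNγ libraries, against 403, 639 and 541 CPM in beta IFNγ libraries (log2 difference -2.96 ± 0.74 (SE), adjusted p = 0.00612). Of 24 islet transcription factors 6 were higher and 3 lower, among them Smarca1, a chromatin remodeller, at 3.98 ± 0.31 and Mlxipl, which encodes the glucose-responsive factor ChREBP, at -4.14 ± 0.39. Of 31 genes of axon guidance and adhesion 10 were higher and 7 lower, with Epha4, an ephrin receptor, at 1.47, 1.60 and 1.45 CPM in alpha IFNγ libraries and 0 in all beta IFNγ libraries, at least 11.4-fold higher against a floor of 3 counts over the group. Of 21 genes of oxidative phosphorylation 6 were lower and none was higher, at a median of -0.34. Of 24 immediate early genes, which respond to dissociation, 3 were higher (Klf4, Socs3 and Klf6) and none was lower. That is 12.5% higher, beside 13.8% over all genes. Of the granule genes 14.3% were higher and 32.1% lower, and of the islet transcription factors 25% and 12.5%, beside 13.8% and 13.3% over all genes. Without alpha IFNγ 1 none of the oxidative phosphorylation genes was lower, and without both alpha IFNγ 1 and 3 the number was 2. Their summed level overlapped between the groups, with 34691, 11048 and 32240 CPM in alpha IFNγ libraries and 21952, 39599 and 22796 CPM in beta IFNγ libraries. Without both alpha IFNγ 1 and 3, 5 of the granule genes were higher and 4 lower, 3 islet transcription factors were higher and 2 lower, and 7 of 32 axon and adhesion genes were higher and 7 lower.

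The largest differences fell on genes near 0 in one cell type. Igfbp4, an IGF binding protein, had 323 counts over the alpha IFNγ libraries and 0 over the beta IFNγ libraries, and was at least 76.4-fold higher against a floor of 3 counts over the group. Ugt8a, an enzyme of galactolipid synthesis, had 49.3, 31.1 and 44.4 CPM in alpha IFNγ libraries, against 0, 0.119 and 0.233 CPM in beta IFNγ libraries; the ratio of summed counts was 317 (95% exact counting interval 108 to 1540.1). Kcnj3, a subunit of a G-protein-gated potassium channel, had 38.1, 36.1 and 45.1 CPM in alpha IFNγ libraries, against 0, 0.830 and 0.583 CPM in beta IFNγ libraries (log2 difference 6.22 ± 0.48 (SE), adjusted p = 8.21e-08). Samd5, Adcy1, an adenylyl cyclase, and Tubb1, a beta tubulin, also stood among the 10 largest differences with alpha IFNγ cells higher. On the other side Th, tyrosine hydroxylase of catecholamine synthesis, had 2 counts in alpha IFNγ cells and 463 in beta IFNγ cells, a ratio of beta over alpha of 326 (interval 89.8 to 2702). P2ry6, a receptor for UDP, had 0, 0.501 and 0.580 CPM in alpha IFNγ libraries, against 25.2, 16.8 and 21.2 CPM in beta IFNγ libraries (log2 difference -5.86 ± 0.72 (SE), adjusted p = 9.99e-06), and Kcnj12, an inward rectifier potassium channel, had 1 count in alpha IFNγ cells and 192 in beta IFNγ cells, a ratio of beta over alpha of 271 (interval 48.0 to 10742). Hist2h2aa2 had 0 counts in alpha IFNγ cells and 475 in beta IFNγ cells, but it has a near-identical copy among the histone genes, so its share of reads is uncertain. Steap4, also among the 10 largest, had 447, 20.1 and 15.6 CPM in alpha IFNγ libraries, against 1.24, 0.948 and 2.56 CPM in beta IFNγ libraries, and its mean in alpha IFNγ cells rests on alpha IFNγ 1, though it passed the test without that library too.

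Receptors and kinases of the pathway did not pass the test. Ifngr1 had 10.1, 8.22 and 9.86 CPM in alpha IFNγ libraries, against 12.4, 14.1 and 10.6 CPM in beta IFNγ libraries (adjusted p = 0.205), and Ifngr2 had 15.2, 8.92 and 6.48 CPM in alpha IFNγ cells and 8.35, 9.96 and 5.25 CPM in beta IFNγ cells (adjusted p = 0.455). For Jak1 and Jak2 the log2 differences were -0.26 ± 0.17 and 0.01 ± 0.21 (SE, adjusted p = 0.285 and 0.97). Stat3, which mediates signals of the IL-6 family, was lower in alpha IFNγ cells (log2 difference -0.47 ± 0.16 (SE), adjusted p = 0.0322), a call lost without any of alpha IFNγ 1, alpha IFNγ 3 and the beta IFNγ libraries. Stat4, which transmits signals of interleukin 12, had 49 counts in alpha IFNγ cells and 1 in beta IFNγ cells, a ratio of 34.8 (interval 5.96 to 1401). Of the feedback inhibitors, Socs1 had 5.78, 9.22 and 4.64 CPM in alpha IFNγ cells and 8.88, 7.35 and 17.4 CPM in beta IFNγ cells (adjusted p = 0.249). Socs3 was higher in alpha IFNγ cells (log2 difference 1.09 ± 0.36 (SE), adjusted p = 0.0302), with overlapping groups, and Ptpn2, a phosphatase that acts on JAK1, had a log2 difference of 0.78 ± 0.28 (SE, adjusted p = 0.0446). Both calls were lost without alpha IFNγ 1. Over the 24 receptor and JAK-STAT genes 5 were higher and 3 lower, and without alpha IFNγ 1 these counts were 1 and 2.

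Irf1, a transcription factor that IFNγ induces, had 135, 154 and 129 CPM in alpha IFNγ libraries, against 157, 176 and 237 CPM in beta IFNγ libraries (log2 difference -0.45 ± 0.21, adjusted p = 0.119). Of 10 interferon regulatory factors tested none was higher and 1, Irf7, which amplifies interferon production, was lower (log2 difference -1.04 ± 0.34 (SE), adjusted p = 0.0317). It did not pass without alpha IFNγ 1, alpha IFNγ 3, beta IFNγ 2 or beta IFNγ 3, or with offsets for GC content. Nlrc5 and Ciita, the transactivators of class I and class II genes, had log2 differences of 0.11 ± 0.34 and -0.18 ± 0.46 (adjusted p = 0.84 and 0.81).

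Induced genes were taken as those higher with IFNγ in the mean of alpha and beta cells (adjusted p under 0.05, log2 fold change over 1), a contrast that does not use the difference between the cell types but can be met through a strong change in one of them. There were 210 (1.21% of genes tested). Of these, 15 were higher in alpha IFNγ cells and 62 were lower, beside 13.8% and 13.3% over all genes; the fitted difference was below 0 for 149 and above 0 for 61, with a median of -0.44 beside 0.03 over all genes. All 3 alpha IFNγ libraries lay below all beta IFNγ libraries for 78 induced genes (37.1%) and above them for 16 (7.62%), beside 19.9% and 19.6% over all genes. Because the genes had to pass this filter, the shares over all genes are background only. Taken alone, alpha cells and beta cells each had a call for 129 of the 210; of these, 6 were higher and 42 lower in alpha IFNγ cells, with a median of -0.47. Of the other 81, which had a call in alpha cells only for 19, in beta cells only for 35 and in neither for 27, 9 were higher and 20 lower, with a median of -0.24. Together the induced genes took 2.71%, 2.31% and 2.04% of the protein-coding TPM in alpha IFNγ libraries and 2.67%, 3.14% and 3.64% in beta IFNγ libraries. Alpha IFNγ 1 lay above beta IFNγ 1 by this measure, so the groups overlapped. Summed as CPM, the induced genes came to 20143, 16992 and 19489 in alpha IFNγ libraries and 22058, 28683 and 28884 in beta IFNγ libraries, with no overlap. The median moved with GC content, being -0.14 in the tertile of genes lowest in GC, -0.46 in the middle and -0.80 in the highest. Over all genes the medians of these tertiles were 0.47, 0.01 and -0.36. The part of GC content in the difference was not tested beyond these values. With offsets for GC content in each library 14 induced genes were higher and 74 lower, at a median of -0.45. Without alpha IFNγ 1, 9 were higher and 41 lower, and without both alpha IFNγ 1 and 3, 4 were higher and 23 lower, at a median of -0.46. Within the dates that held both cell types with IFNγ, the median over the 210 genes was -0.301 for alpha IFNγ 2 minus beta IFNγ 1 and -0.51 for alpha IFNγ 3 minus beta IFNγ 2.

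**Figure D2:**
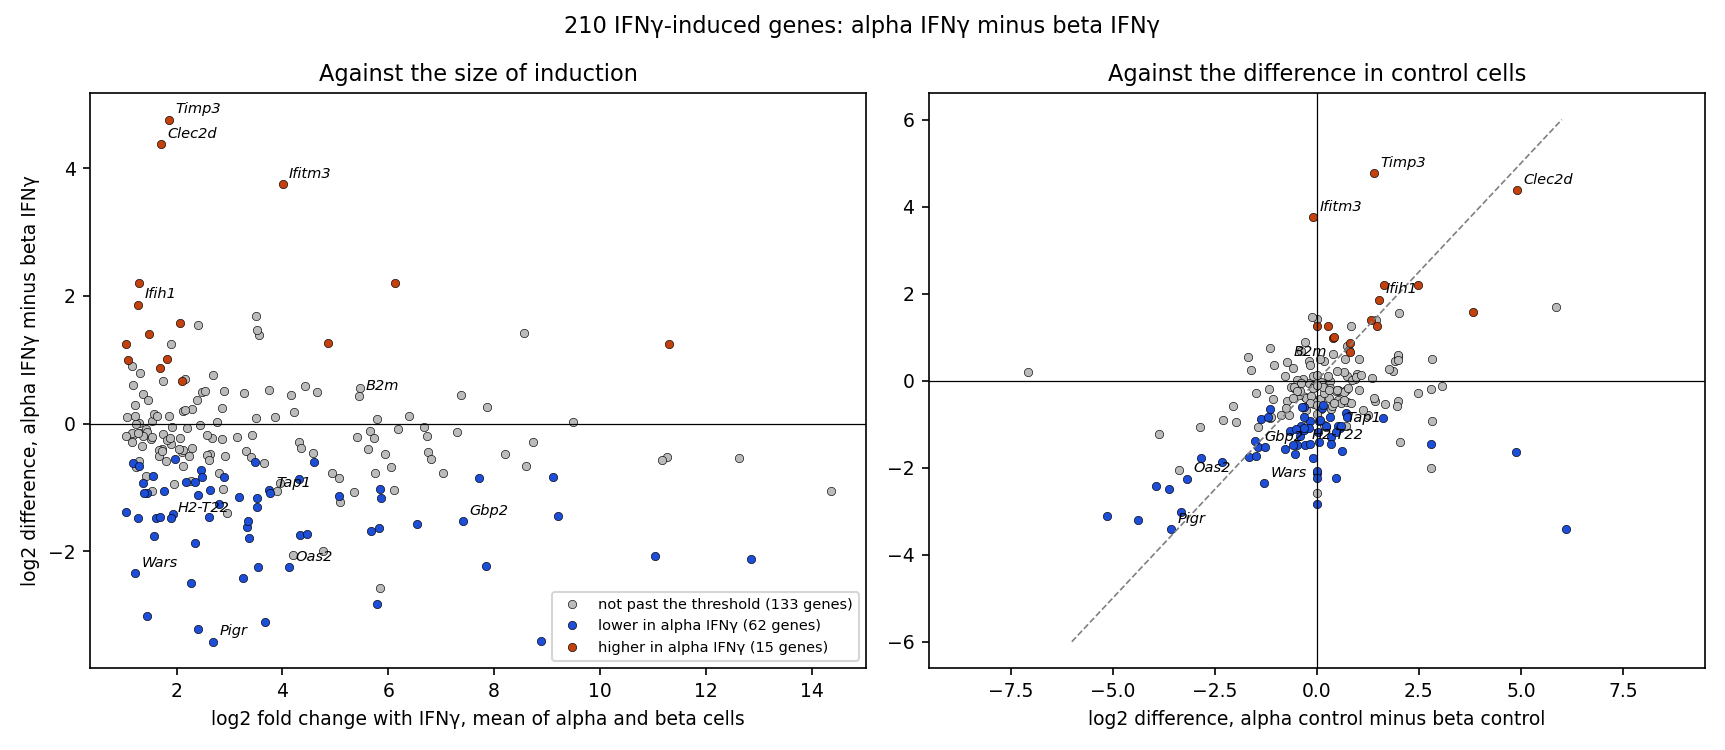
The log2 difference of alpha IFNγ minus beta IFNγ for the 210 induced genes, against the log2 fold change with IFNγ in the mean of both cell types (left) and against the log2 difference of alpha control minus beta control (right); each point is a gene, blue or orange where it was lower or higher at an adjusted p under 0.05, and the dashed line marks equal differences. Of the 62 blue genes 36 lie left of 0 in the right panel, and 16 were also called lower in alpha control cells. A fitted control difference of exactly 0, as for Sp100, does not show equal levels in controls.

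The induced genes were also ordered by level. By mean TPM, B2m, the light chain of class I molecules, came first, with 1743, 940.0 and 843 TPM in alpha IFNγ libraries and 744, 1311 and 872 TPM in beta IFNγ libraries, and H2-K1 second, with 331, 881 and 285 TPM in alpha IFNγ libraries and 1030.0, 918 and 923 TPM in beta IFNγ libraries. Serping1, the C1 inhibitor of the complement system, was the third in both, with 278, 486 and 226 TPM in alpha IFNγ libraries and 241, 341 and 327 TPM in beta IFNγ libraries. The groups overlapped for B2m and Serping1 and not for H2-K1. The 12 highest genes shared 9 between the cell types. Psme1, Gbp6 and Tgtp1 stood among the 12 only in alpha IFNγ cells, and Tapbp, Igtp and Gbp2 only in beta IFNγ cells. The interferon-inducible GTPase Iigp1 was 8th in alpha IFNγ cells and 4th in beta IFNγ cells, with 372, 349.5 and 975 CPM in alpha IFNγ cells and 639, 1321 and 1573 CPM in beta IFNγ cells (log2 difference -1.06 ± 0.43, adjusted p = 0.0805). A mean of at least 100 TPM was reached by 12 induced genes in alpha IFNγ cells and by 21 in beta IFNγ cells. The summed TPM of protein-coding genes ran from 193310 in alpha IFNγ 1 to 291090 in alpha IFNγ 2. TPM values set side by side between libraries also carry this difference.

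Promoter windows of RefSeq (GRCm38.p6, 250 bases before to 50 after each start) were searched on both strands for the GAS letters TTCNNNGAA and for the interferon-stimulated response element (ISRE) letters GAAANNGAAA or TTTCNNTTTC; the motifs may overlap each other. GAS stands for interferon gamma-activated site, and the ISRE letters are those that interferon regulatory factors bind. Of the 210 induced genes 144 matched a window. GAS letters were present in 8.3% of all 32851 windows and in 16.1% of the 180 windows of induced genes, and ISRE letters in 3.44% of all windows and in 34.4% of those of induced genes. By gene, ISRE letters stood in a window of 7 of the 11 matched genes that were higher in alpha IFNγ cells, of 18 of the 47 that were lower, and of 34 of the 86 that did not pass; GAS letters stood in 4, 7 and 17 of them. A match describes letters only and says nothing of binding. The windows of 2 genes higher in alpha IFNγ cells, Ifih1 (chr2:62646206-62646505, minus strand) and Ifitm3 (chr7:141010695-141010994, minus strand), and of 3 that were lower, Gbp2 (chr3:142620413-142620712, plus strand), Igtp (chr11:58199306-58199605, plus strand) and H2-T22 (chr17:36042693-36042992, minus strand), are printed from 5′ to 3′ with motif letters in capitals, as examples picked from both directions:
Ifih1: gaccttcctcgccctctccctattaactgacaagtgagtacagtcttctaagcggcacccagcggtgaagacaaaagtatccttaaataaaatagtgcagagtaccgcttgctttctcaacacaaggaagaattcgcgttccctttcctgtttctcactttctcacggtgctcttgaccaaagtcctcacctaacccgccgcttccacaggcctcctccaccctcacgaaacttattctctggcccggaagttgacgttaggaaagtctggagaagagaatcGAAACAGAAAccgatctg
Ifitm3: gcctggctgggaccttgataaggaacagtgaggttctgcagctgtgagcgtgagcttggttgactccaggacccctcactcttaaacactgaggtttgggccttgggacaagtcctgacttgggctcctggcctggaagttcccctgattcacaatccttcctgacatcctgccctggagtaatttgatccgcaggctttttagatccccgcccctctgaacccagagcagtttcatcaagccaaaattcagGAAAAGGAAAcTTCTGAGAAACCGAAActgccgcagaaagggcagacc
Gbp2: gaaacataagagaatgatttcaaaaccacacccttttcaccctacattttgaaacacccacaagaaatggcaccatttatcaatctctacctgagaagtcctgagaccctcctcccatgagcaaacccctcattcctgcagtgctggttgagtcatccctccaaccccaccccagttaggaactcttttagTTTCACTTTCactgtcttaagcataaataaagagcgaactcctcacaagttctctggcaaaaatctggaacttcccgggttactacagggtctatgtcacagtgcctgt
Igtp: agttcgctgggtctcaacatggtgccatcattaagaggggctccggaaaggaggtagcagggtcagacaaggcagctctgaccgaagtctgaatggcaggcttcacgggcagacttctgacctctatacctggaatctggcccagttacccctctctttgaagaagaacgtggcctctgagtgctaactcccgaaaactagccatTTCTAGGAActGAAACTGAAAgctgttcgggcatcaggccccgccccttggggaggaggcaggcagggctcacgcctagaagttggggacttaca
H2-T22: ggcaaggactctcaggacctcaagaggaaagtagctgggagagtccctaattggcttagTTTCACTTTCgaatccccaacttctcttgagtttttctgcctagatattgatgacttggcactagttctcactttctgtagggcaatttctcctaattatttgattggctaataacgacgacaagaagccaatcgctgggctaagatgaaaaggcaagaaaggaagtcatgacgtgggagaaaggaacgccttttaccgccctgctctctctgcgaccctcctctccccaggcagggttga
The Ifitm3 window holds 2 ISRE matches and 1 GAS match, which overlaps the second of them, and in the Igtp window 1 GAS and 1 ISRE match stand side by side. The Ifih1, Gbp2 and H2-T22 windows hold 1 ISRE match each and no GAS match, and the matched letters in the Gbp2 and H2-T22 windows are the same. Not printed are the windows of Pigr, a lower gene, with 1 GAS match and no ISRE match, and of Clec2d, a higher gene, with 1 ISRE match and no GAS match.

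Genes of class I antigen presentation cut proteins into peptides, carry the peptides into the endoplasmic reticulum and load them on class I molecules, which CD8 T cells read. Of 27 tested, 12 were lower in alpha IFNγ cells and none was higher, with a median log2 difference of -0.59; all 12 were induced genes, and the median of the 20 induced members was -0.93. The summed level of the list was 7477, 6932 and 6326 CPM in alpha IFNγ libraries and 8890.0, 9655 and 8846 CPM in beta IFNγ libraries, with no overlap. Many of these genes lie together on chromosome 17 (GRCm38), among them Tapbp (chr17:33915899-33929292), H2-K1 (chr17:33996017-34000347), Psmb9 (chr17:34181987-34187764), Tap1 (chr17:34187553-34197225), Psmb8 (chr17:34197721-34201454) and Tap2 (chr17:34203527-34216321). B2m is on chromosome 2 (chr2:122147686-122153083).

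H2-K1, a classical heavy chain, had 630.4, 999 and 544 CPM in alpha IFNγ libraries, against 1404, 1314 and 1396 CPM in beta IFNγ libraries (log2 difference -0.92 ± 0.24 (SE), adjusted p = 0.00739). H2-D1, the other classical heavy chain, had 375, 713 and 326 CPM in alpha IFNγ libraries, against 830.3, 673 and 729 CPM in beta IFNγ libraries (log2 difference -0.66 ± 0.27, adjusted p = 0.076), with overlapping groups. B2m had 2679, 992 and 1345 CPM in alpha IFNγ libraries, against 976, 1714 and 1026 CPM in beta IFNγ libraries (log2 difference 0.43 ± 0.35, adjusted p = 0.383). H2-K1, H2-D1 and the other class I chains are near-identical in parts, so the split of reads among them is uncertain. Among the non-classical chains H2-T22 had 35.3, 42.8 and 34.4 CPM in alpha IFNγ cells and 97.5, 107 and 109.7 CPM in beta IFNγ cells (log2 difference -1.48 ± 0.21 (SE), adjusted p = 4.7e-05), and H2-T23 and H2-Q4 had log2 differences of -1.30 ± 0.30 and -0.84 ± 0.22 (SE, adjusted p = 0.00354 and 0.00827).

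The peptide transporter genes Tap1 and Tap2 were both lower. Tap1 had 83.1, 147 and 86.7 CPM in alpha IFNγ libraries, against 192, 209 and 271 CPM in beta IFNγ libraries (log2 difference -1.09 ± 0.26 (SE), adjusted p = 0.00438), and Tap2 had 28.6, 59.4 and 27.4 CPM in alpha IFNγ libraries, against 105, 87.4 and 124 CPM in beta IFNγ libraries (log2 difference -1.46 ± 0.37 (SE), adjusted p = 0.00667). Tapbp, which encodes tapasin, the bridge between transporter and class I chain, had 315, 450.4 and 248 CPM in alpha IFNγ libraries, against 812, 861 and 1157 CPM in beta IFNγ libraries (log2 difference -1.48 ± 0.25 (SE), adjusted p = 0.00028). Alpha IFNγ 2 was the highest alpha library for each of these genes and still lay below the lowest beta library. Tapbpl, a relative of tapasin, had a log2 difference of -1.48 ± 0.23 (SE, adjusted p = 0.000113). The immunoproteasome subunits Psmb8, Psmb9 and Psmb10, which change how proteins are cut into peptides, had log2 differences of -1.15 ± 0.27, -1.17 ± 0.34 and -1.41 ± 0.34 (adjusted p = 0.00438, 0.0149 and 0.0045). The proteasome activator Psme2 was lower (-0.94 ± 0.32, adjusted p = 0.038), and its partner Psme1 had -0.40 ± 0.27 (adjusted p = 0.287). Psmb9 and Tap1 share exon sequence on opposite strands, and whether the counting used strand was not stated. The count of 12 was 13 with offsets for GC content and 12 in the 8 alpha and beta libraries from the dates that held both treatments, with date as a term. It was 10 without alpha IFNγ 1, and without both alpha IFNγ 1 and 3 it fell to 2, H2-T22 and Tapbpl, with a median of -0.39 over the list. Without alpha IFNγ 1 alone the median was -0.39 as well.

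In control cells 1 of the 27 was higher and 1 lower in alpha cells, and the median of the 20 induced members was 0.05. For Tap1 the log2 difference was -1.09 ± 0.26 with IFNγ and 0.57 ± 0.28 in controls, and for Tap2 -1.46 ± 0.37 with IFNγ and 0.36 ± 0.38 in controls (SE). The difference between these differences was -1.66 ± 0.38 for Tap1 (unadjusted p = 0.000378, adjusted p = 0.369) and -1.82 ± 0.53 for Tap2 (unadjusted p = 0.00275, adjusted p = 0.369). It did not pass the adjusted threshold for any of the 17338 genes in edgeR's test, where 2305 genes (13.3%) had an unadjusted p under 0.05; DESeq2 called 9 genes and limma-voom 0. The unadjusted count was 882 with offsets for GC content, 612 with date as a term, 484 in the 8 libraries of the dates that held both treatments, 1028 without alpha IFNγ 1, 253 without both alpha IFNγ 1 and 3, and 1040 without beta control 3, where edgeR's test again called 0. Among the 210 induced genes 53 had an unadjusted p under 0.05, 42 of them below 0. Without alpha IFNγ 2 the number past the adjusted threshold was 1375, so this count turned on 1 library. Over the 62 induced genes lower in alpha IFNγ cells, 16 were also lower in alpha control cells and 36 had a control difference below 0.

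**Figure D3:**
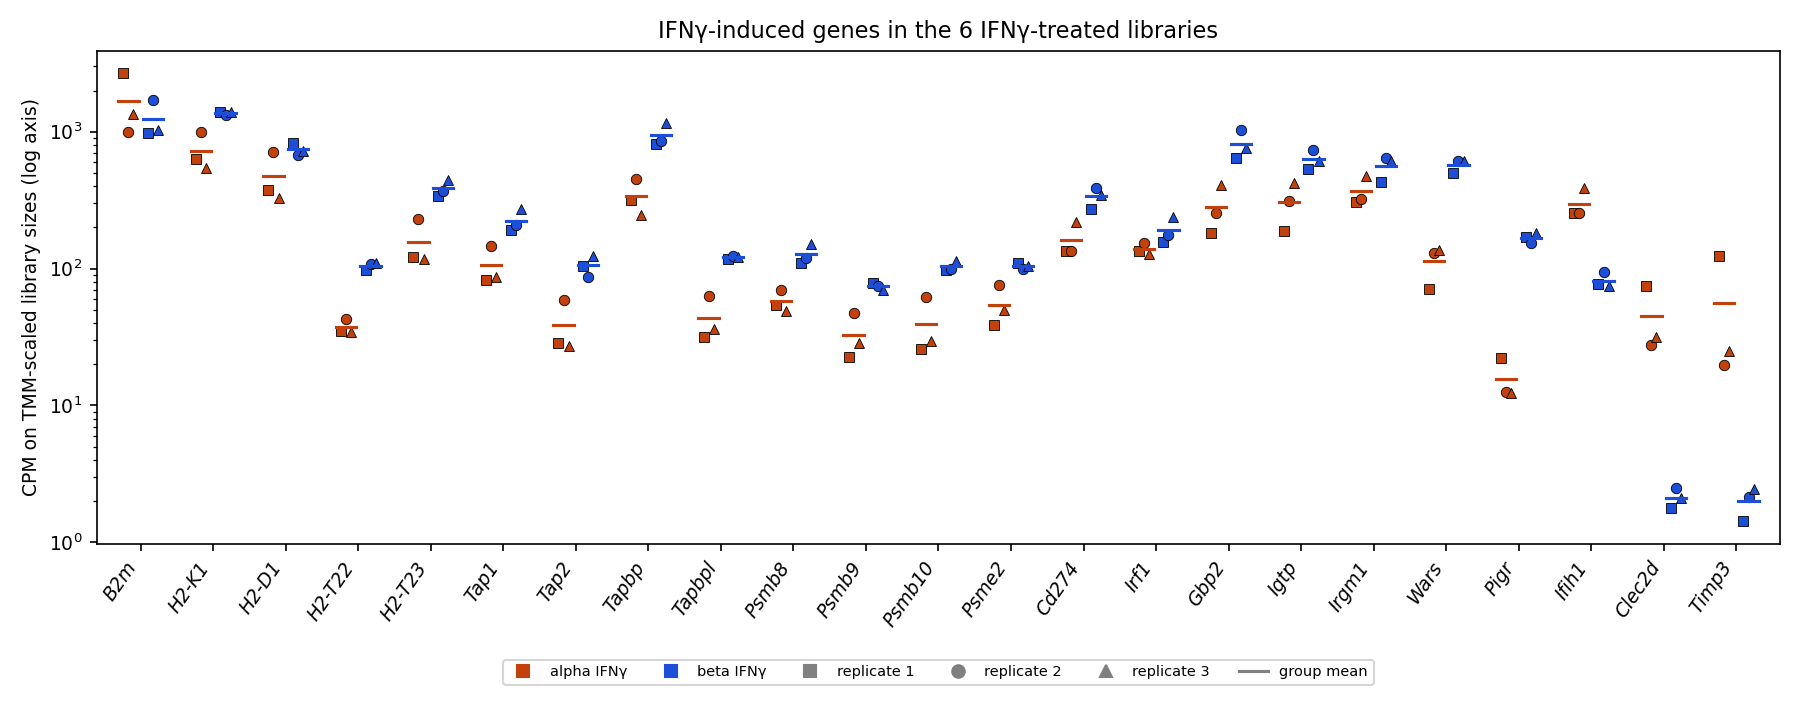
Levels of named induced genes in each IFNγ-treated library, in CPM on a log axis; points are libraries, shapes are replicate numbers and bars are group means, with alpha IFNγ left of beta IFNγ. From H2-T22 to Psme2 the 3 alpha IFNγ libraries lie below the 3 beta IFNγ libraries in each gene; B2m overlaps, and Ifih1, Clec2d and Timp3 are higher in alpha IFNγ cells.

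Class II genes, which present peptides to CD4 T cells in professional antigen-presenting cells, were at low levels in both groups. Cd74, the invariant chain, had 64.8, 50.4 and 22 CPM in alpha IFNγ libraries, against 34.6, 56.8 and 58.0 CPM in beta IFNγ libraries (log2 difference -0.13 ± 0.35, adjusted p = 0.822). H2-DMb1, a subunit of the class II peptide exchanger, had 0.690, 2.41 and 1.45 CPM in alpha IFNγ libraries, against 5.68, 8.06 and 7.46 CPM in beta IFNγ libraries (log2 difference -2.23 ± 0.46 (SE), adjusted p = 0.00241). Of 9 class II genes tested 4 were lower (H2-DMb1, Ifi30, H2-DMa and H2-Aa) and none was higher, and without both alpha IFNγ 1 and 3 none passed.

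Interferon-inducible GTPases attack the vacuoles of intracellular parasites and include the guanylate-binding proteins and the IRG family. Of 21 tested, 4 were lower in alpha IFNγ cells and none was higher, with a median of -0.55. The share lower was 19%, beside 13.3% over all genes and 29.5% over the induced genes, to which 20 of the 21 belong. Gbp2 had 182, 254 and 408 CPM in alpha IFNγ libraries, against 642, 1038 and 761 CPM in beta IFNγ libraries (log2 difference -1.53 ± 0.33 (SE), adjusted p = 0.00198), and Gbp8 had 156, 99.2 and 131 CPM in alpha IFNγ cells and 243, 298 and 313 CPM in beta IFNγ cells (log2 difference -1.14 ± 0.28 (SE), adjusted p = 0.0054). In controls 3 of the 21 were higher and 2 lower in alpha cells. Gbp2 was among the lower there (log2 difference -1.44, adjusted p = 0.0265), while Gbp8 had -0.31 (adjusted p = 0.57). Igtp had 188, 310.4 and 425 CPM in alpha IFNγ libraries, against 537, 742 and 611 CPM in beta IFNγ libraries (log2 difference -1.03 ± 0.28 (SE), adjusted p = 0.00987) and did not pass without alpha IFNγ 1, and Irgm1 was just past the threshold (adjusted p = 0.047) with overlapping groups. Irgm2 and Gbp6 did not pass (-0.46 ± 0.22 and -0.47 ± 0.27). Tgtp2 had 548, 436 and 666 CPM in alpha IFNγ cells and 381, 667 and 567 CPM in beta IFNγ cells (log2 difference 0.03 ± 0.43, adjusted p = 0.969). It is nearly identical to Tgtp1, so their split of reads is uncertain, and Igtp and Irgm2 share an exon, as do Gbp8 and its neighbours Gbp4 and Gbp9. With offsets for GC content 8 of the 21 were lower, and without both alpha IFNγ 1 and 3 the number was 4.

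Of 49 antiviral genes tested, 20 were lower in alpha IFNγ cells and 4 higher, with a median of -0.57. Oas2, which makes the second messenger that activates RNase L, had 24.2, 26.6 and 15.5 CPM in alpha IFNγ libraries, against 94.9, 84.2 and 137 CPM in beta IFNγ libraries (log2 difference -2.25 ± 0.37 (SE), adjusted p = 0.000213). In controls 5 of the 49 were higher and 5 lower in alpha cells. Oas2 was among the lower there (log2 difference -3.17, adjusted p = 0.000185). Rsad2, which encodes viperin, had 7.76, 28.5 and 28.6 CPM in alpha IFNγ cells and 67.5, 44.1 and 75.6 CPM in beta IFNγ cells (log2 difference -1.53 ± 0.40 (SE), adjusted p = 0.00802), and Ifit3 and Bst2, the tetherin gene, had log2 differences of -1.68 ± 0.32 and -1.62 ± 0.43 (SE, adjusted p = 0.000832 and 0.00902). Slfn8, a schlafen gene, had 0.0862, 0.100 and 0.580 CPM in alpha IFNγ cells and 3.38, 2.96 and 4.66 CPM in beta IFNγ cells (log2 difference -3.79 ± 0.99 (SE), adjusted p = 0.00862). Parp14, a mono-ADP-ribosyltransferase, had 314, 196 and 283 CPM in alpha IFNγ libraries, against 311, 400.2 and 394 CPM in beta IFNγ libraries (log2 difference -0.48 ± 0.20, adjusted p = 0.0863). The 4 higher genes were Ifih1, Ifitm2, Ifitm3 and Samhd1. Ifih1, which encodes MDA5, the cytosolic sensor of long double-stranded RNA, had 253, 254 and 387 CPM in alpha IFNγ libraries, against 77.1, 93.9 and 74.2 CPM in beta IFNγ libraries (log2 difference 1.86 ± 0.22 (SE), adjusted p = 7.53e-06). It was higher in alpha control cells too (115, 105 and 109.5 CPM, against 35.2, 40.0 and 39.1 CPM in beta control cells, log2 difference 1.53 ± 0.23). Ifitm3, a membrane protein that blocks viral entry, had 14.2, 8.02 and 3.77 CPM in alpha IFNγ libraries, against 0, 0.711 and 1.05 CPM in beta IFNγ libraries (log2 difference 3.76 ± 0.85 (SE), adjusted p = 0.00311), and Samhd1, which depletes nucleotides, had 107, 133 and 169 CPM in alpha IFNγ cells and 49.0, 85.0 and 89.4 CPM in beta IFNγ cells. The groups did not overlap for Ifih1, Ifitm3 or Samhd1, and the Samhd1 call was lost without alpha IFNγ 3 or without beta IFNγ 1. Without alpha IFNγ 1 the counts were 9 lower and 3 higher of 51, and without both alpha IFNγ 1 and 3 they were 4 lower and 2 higher of 53.

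Of 17 tested genes of immune checkpoints and regulation 3 were higher and 4 lower (17.6% and 23.5%, beside 13.8% and 13.3% over all genes). Without alpha IFNγ 1 the counts were 1 and 3 of 18. Of the 4 lower genes 1 was Tap1, the peptide transporter gene that is also counted in the class I list. Cd274, which encodes the T cell inhibitory ligand PD-L1, had 134, 135 and 220.1 CPM in alpha IFNγ libraries, against 271, 391 and 347 CPM in beta IFNγ libraries (log2 difference -1.05 ± 0.27 (SE), adjusted p = 0.00718), and none of the alternatives run removed this call. In controls Cd274 had 18.9, 14.9 and 11.8 CPM in alpha cells, against 22.8, 20.6 and 16.3 CPM in beta cells. Il18bp, the decoy of interleukin 18, was lower in alpha IFNγ cells (log2 difference -1.26 ± 0.21 (SE), adjusted p = 0.000268), as was Lgals9, the galectin 9 gene (log2 difference -2.24 ± 0.67 (SE), adjusted p = 0.0192), which did not pass without alpha IFNγ 1, beta IFNγ 2 or beta IFNγ 3. Serpina3f, a protease inhibitor, averaged higher in alpha IFNγ cells through alpha IFNγ 1, with 34.9, 4.91 and 7.54 CPM in alpha IFNγ cells and 1.78, 4.98 and 3.38 CPM in beta IFNγ cells (adjusted p = 0.0251), and did not pass without that library. Among 11 tested chemokines, cytokines and adhesion molecules 2 were higher and 3 lower (18.2% and 27.3%). Cxcl10, the chemokine that draws T cells, had 17.3, 15.2 and 13.2 CPM in alpha IFNγ libraries, against 11.2, 34.0 and 33.3 CPM in beta IFNγ libraries (log2 difference -0.78 ± 0.44, adjusted p = 0.201), with overlapping groups. Il1b, which encodes interleukin 1 beta, had 0.172, 0.501 and 1.26 CPM in alpha IFNγ cells and 8.35, 8.18 and 6.88 CPM in beta IFNγ cells (log2 difference -3.58 ± 0.77 (SE), adjusted p = 0.00205). Icam1, an adhesion molecule for leukocytes, had 36.0, 0.902 and 0.677 CPM in alpha IFNγ libraries, against 0.355, 0.948 and 0.932 CPM in beta IFNγ libraries, so its call (adjusted p = 0.019) rests on alpha IFNγ 1 alone.

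Some of the largest differences among induced genes were present in control cells. Wars, the tryptophanyl-tRNA synthetase that IFNγ induces, had 71.4, 131 and 137 CPM in alpha IFNγ libraries, against 498, 609.8 and 615 CPM in beta IFNγ libraries (log2 difference -2.35 ± 0.26 (SE), adjusted p = 2.84e-06), and a control difference of -1.29 ± 0.25 (adjusted p = 0.0011). Pigr, the polymeric immunoglobulin receptor that carries IgA across epithelia, had 22.2, 12.6 and 12.3 CPM in alpha IFNγ libraries, against 171, 154 and 181 CPM in beta IFNγ libraries (log2 difference -3.42 ± 0.28 (SE), adjusted p = 1.65e-07), and a control difference of -3.56 ± 0.32 (adjusted p = 4.48e-07). Clec2d, a ligand of natural killer cell receptors, ran the other way, with 75.1, 27.8 and 31.4 CPM in alpha IFNγ libraries, against 1.78, 2.49 and 2.10 CPM in beta IFNγ libraries (log2 difference 4.38 ± 0.38 (SE), adjusted p = 2.74e-07), and a control difference of 4.91 ± 0.45 (adjusted p = 5.51e-07). Timp3, an inhibitor of matrix metalloproteinases, had 123, 19.7 and 24.9 CPM in alpha IFNγ libraries, against 1.42, 2.13 and 2.45 CPM in beta IFNγ libraries (log2 difference 4.76 ± 0.60 (SE), adjusted p = 1.21e-05), while its control difference was 1.40 ± 0.61 (adjusted p = 0.12); alpha IFNγ 1 was the highest library, and the others still lay above every beta library. Sp100, which encodes a nuclear body protein, had 0.172, 0.100 and 0.580 CPM in alpha IFNγ cells and 2.31, 2.25 and 1.75 CPM in beta IFNγ cells (log2 difference -2.83 ± 0.74 (SE), adjusted p = 0.0118). Its fitted control difference was exactly 0, as it was for H2-DMb1 and Ido1. Such a value does not show equal levels in control cells. Trim5 and Trim12a, related genes of antiviral restriction, were higher in alpha IFNγ cells, with log2 differences of 1.58 ± 0.44 and 1.40 ± 0.34 (SE, adjusted p = 0.0128 and 0.00514). Their control differences were 3.81 and 1.33 (adjusted p = 0.00026 and 0.0197). The predicted genes Gm3512, Gm3468, Gm3739 and Gm8237 were lower in alpha IFNγ cells, and they belong to a family of close copies with uncertain shares of reads. Their control differences were -4.38, -3.62, -3.93 and -5.13 (adjusted p = 0.00017, 0.0014, 0.0073 and 0.0209).

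Of 28 tested genes of cell death 6 were higher and 5 lower, and without both alpha IFNγ 1 and 3 the counts were 5 and 1 of 29. With all libraries 21.4% of the 28 were higher and 17.9% lower, beside 13.8% and 13.3% over all genes. Casp1, the protease of the inflammasome, had 2 counts in alpha IFNγ libraries and 58 in beta IFNγ libraries, a ratio of beta over alpha of 40.9 (interval 10.8 to 345). Gsdmd, which encodes the pore-forming substrate of caspase 1, had 4.57, 2.51 and 2.90 CPM in alpha IFNγ cells and 7.82, 8.42 and 9.67 CPM in beta IFNγ cells (log2 difference -1.37 ± 0.39 (SE), adjusted p = 0.0135). Bcl2, an inhibitor of apoptosis, was higher in alpha IFNγ cells, with 63.7, 48.1 and 63.8 CPM in alpha IFNγ libraries, against 2.66, 4.27 and 5.36 CPM in beta IFNγ libraries (log2 difference 3.81 ± 0.25 (SE), adjusted p = 1.41e-08), and the control difference was 4.16 ± 0.26. Fas, a death receptor, had 12.7, 3.51 and 5.22 CPM in alpha IFNγ libraries, against 0.355, 0.474 and 0.117 CPM in beta IFNγ libraries (log2 difference 4.46 ± 0.76 (SE), adjusted p = 0.00027). Birc3, another inhibitor of apoptosis, had 107, 26.6 and 22.7 CPM in alpha IFNγ cells and 15.5, 21.8 and 14.8 CPM in beta IFNγ cells and lost its call without alpha IFNγ 1.

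The unfolded protein response adjusts the folding capacity of the endoplasmic reticulum, on which insulin synthesis draws heavily. Of 27 tested genes 15 were lower in alpha IFNγ cells and none was higher, with a median of -0.93. Chac1, a target of its ATF4 branch, had 1.90, 4.71 and 6.19 CPM in alpha IFNγ libraries, against 44.2, 50.02 and 56.3 CPM in beta IFNγ libraries (log2 difference -3.56 ± 0.45 (SE), adjusted p = 1.34e-05). Trib3 had 1.12, 8.72 and 9.09 CPM in alpha IFNγ cells and 61.5, 41.1 and 45.3 CPM in beta IFNγ cells (log2 difference -2.97 ± 0.53 (SE), adjusted p = 0.000455), and Atf4 itself had a log2 difference of -1.85 ± 0.27 and Ddit3, which encodes CHOP, of -1.79 ± 0.40. Edem1 and Herpud1, which act in the degradation of misfolded proteins, had log2 differences of -2.69 ± 0.24 and -1.82 ± 0.21. Ero1lb, an oxidase that forms disulfide bonds and is abundant in islets, had 172, 142 and 273 CPM in alpha IFNγ libraries, against 717, 1004 and 966 CPM in beta IFNγ libraries (log2 difference -2.19 ± 0.38 (SE), adjusted p = 0.00032). The chaperone gene Hspa5 (BiP) and the transcription factor gene Xbp1 did not pass (-0.42 ± 0.31 and -0.24 ± 0.18). In controls 19 of the 27 were lower in alpha cells at a median of -1.16, and without both alpha IFNγ 1 and 3 the number lower with IFNγ was 10.

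Gpx3, the secreted glutathione peroxidase, had 695, 974 and 653 CPM in alpha IFNγ libraries, against 26.1, 25.6 and 21.3 CPM in beta IFNγ libraries (log2 difference 4.99 ± 0.45 (SE), adjusted p = 3.27e-07). Gpx2 and Hmox1, a further peroxidase and heme oxygenase 1, were lower, with log2 differences of -2.82 ± 0.32 and -2.33 ± 0.32 (SE, adjusted p = 3.5e-06 and 2.74e-05). Of 26 genes of oxidative stress and NF-κB signalling 3 were higher and 5 lower. Of 13 complement genes 3 were higher and 2 lower (23.1% and 15.4%), and without alpha IFNγ 1 the counts were 1 and 0. Cfi, which cleaves C3b, had 28.1, 23.6 and 17.3 CPM in alpha IFNγ libraries, against 0.533, 0.237 and 0.466 CPM in beta IFNγ libraries (log2 difference 5.80 ± 0.56 (SE), adjusted p = 7.32e-07), and C1s1 had 14.5, 0.702 and 0.774 CPM in alpha IFNγ cells and 0.178, 0.119 and 0.117 CPM in beta IFNγ cells, a ratio of summed counts of 43.3 (interval 14.6 to 212), which did not pass the test without alpha IFNγ 1.

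**Figure D4:**
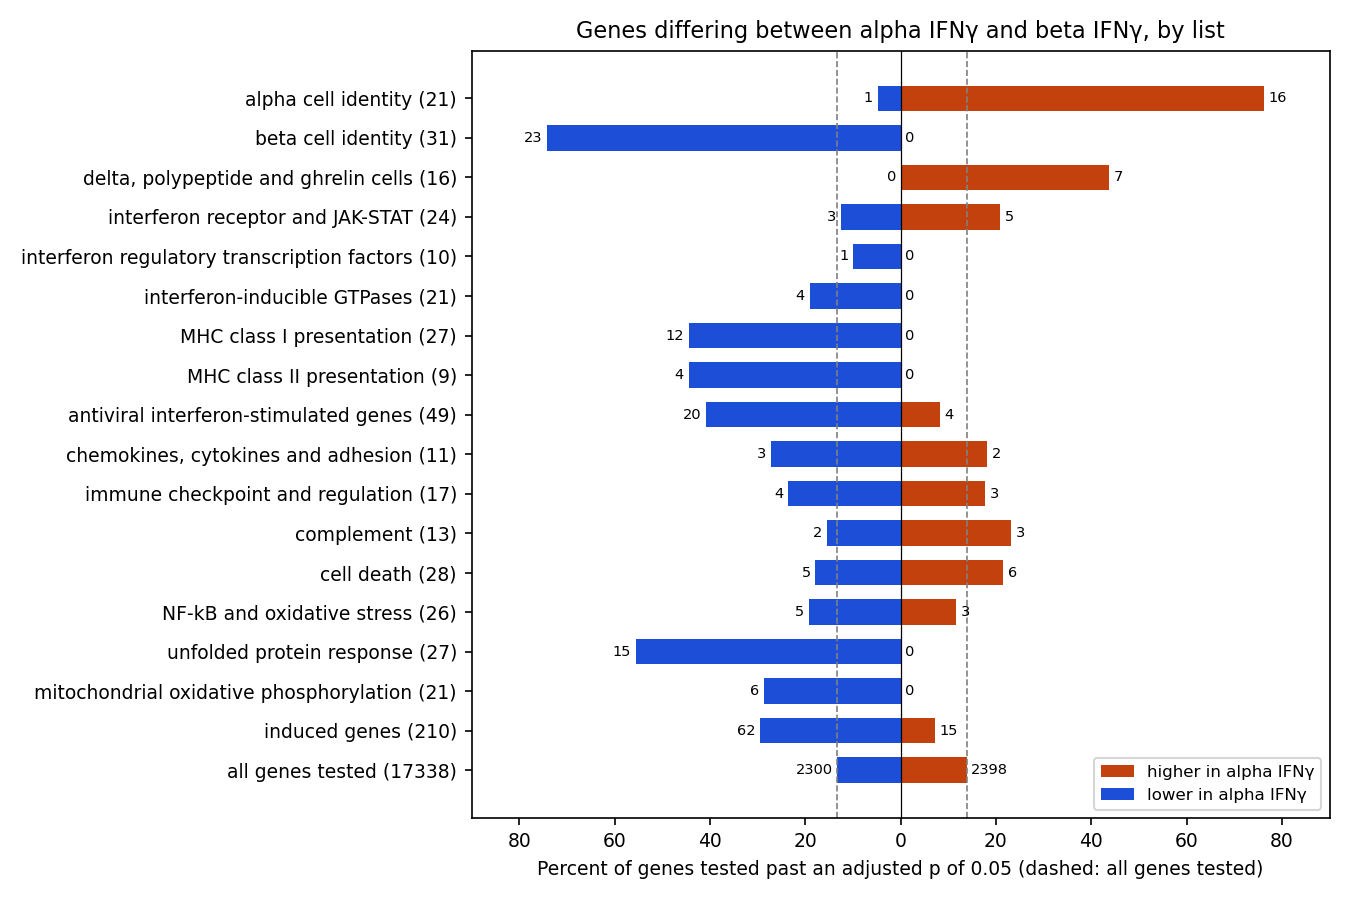
Share of the tested genes of each list that was higher (right) or lower (left) in alpha IFNγ cells at an adjusted p under 0.05, in percent; numbers at the bars are counts of genes, numbers in brackets are genes tested, and dashed lines mark the shares over all genes, 13.8% higher and 13.3% lower. The class I list stands at 12 lower and 0 higher of 27, and the unfolded protein response at 15 lower and 0 higher of 27.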

How the data were processed

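The authors prepared random-primed, rRNA-depleted Ovation Solo libraries, aligned their reads to the GRCm38 genome (STAR 2.5.2b) and ran RSEM per gene. The deposited tables hold, per library, RSEM expected counts, which are estimates, and TPM and FPKM; FPKM was not used. Strand use in counting and removal of PCR copies were not stated. By the study's methods every n is a separate biological sample, and p-values treat libraries so.

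The 55487 identifiers were matched to GENCODE M21 (99.53%). Expected counts were rounded, filtered (filterByExpr, minimum count 10), scaled by TMM and fitted in edgeR 4.0.16 (R 4.3.3) with a mean per group over all 18 libraries; quasi-likelihood p-values were Benjamini-Hochberg adjusted at 0.05. The script was tested on simulated data. Alternatives used limma 3.58.1 and DESeq2 1.42.0, TPM with a pseudocount of 1, other filters, scalings, dates, GC offsets and libraries left out. The dates come from the names of the deposited tables. The authors' own DESeq2 analysis had a batch term. The labels name no batch, so the main fit here had none.

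Named genes were 167 by rule: a fixed set, the 10 largest non-overlapping differences in each direction, up to 4 per list, the 12 induced genes of highest TPM, and up to 10 induced genes in each direction; 35 more were chosen after their values were seen. The groups, the 28 gene lists (649 of 653 symbols matched) and the rule were chosen with earlier results of these data known. Some genes of the lists are not reported here.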

Additional observations from a re-analysis of the deposited data

How the results depend on the processing

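Counts of genes higher and lower in alpha IFNγ cells, 2398 and 2300, were 762 and 1486 with limma on log2(TPM + 1), 1265 and 1340 at an adjusted p under 0.01, and 930 and 766 without both alpha IFNγ 1 and 3, an alternative chosen after seeing the data. Leaving out 1 library at a time gave 1430 to 3068 higher and 1413 to 3223 lower. Induced genes higher and lower, 15 and 62, were 8 and 36 at an adjusted p under 0.01, 9 higher with limma on TPM, and 4 and 23 without both alpha IFNγ 1 and 3; with 1 library left out they were 9 to 22 and 41 to 64. The number of induced genes was 210, and 129 when a call in each cell type alone was required. The number of genes whose difference changed with IFNγ, 0, was 539 with no low-count filter, 9 with DESeq2, 1 with date as a term, 2 without both alpha IFNγ 1 and 3, and 0 to 1375 with 1 library left out. The cause of these shifts was not tested.

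Replicate numbers did not pair the libraries: deviations of same-numbered alpha and beta IFNγ libraries correlated at -0.181, -0.121 and -0.0989. With the replicate block the counts were 2372 higher and 2435 lower over all genes, and 14 and 63 among induced genes. Same-date pairs correlated at 0.238 and 0.202, and alpha IFNγ 1 with beta IFNγ 3, which share neither date nor number, at 0.19. With date as a term over all 18 libraries the counts were 2039 higher and 2108 lower over all genes, and 13 and 59 among induced genes. In the 8 libraries of the dates that held both treatments, also with that term, they were 1610 and 1853, and 12 and 55. Of 166 named genes past the threshold, 0 turned direction in the alternatives where they could be tested, which were fewest with limma on TPM (156) and with the 6 IFNγ libraries alone (161), and 65 lost the call without both alpha IFNγ 1 and 3, which leaves 1 alpha IFNγ library assumed to vary like the others.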
